A study of Saccharomyces cerevisiae with 6 samples.

Results

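The cytosolic ribosomal protein genes of the yeast Saccharomyces cerevisiae are described here in 3 galactose-evolved strains, 62A, 62B and 62C, and in the unevolved reference strain, all grown on glucose. They were picked by gene symbol in the array annotation (RPL or RPS followed by a number and, for paralogs, the letter A or B, plus the stalk genes RPP0, RPP1A, RPP1B, RPP2A and RPP2B), and no measured value entered the choice. The rule found 127 of the 5449 genes tested, 75 of the large subunit including the 5 stalk genes and 52 of the small subunit. RNA was measured on 6 Affymetrix Yeast Genome 2.0 arrays. The labels assign 1 array to 62A, 2 arrays to 62B, 1 array to 62C and 2 arrays to the reference.

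The 3 evolved strains are mutants obtained by adaptive evolution on galactose, and the reference is wild type. The strains share the background CEN.PK113-7D, a laboratory strain used in physiology, and the labels name no mutation. Minimal medium with glucose, aerobic batch growth in a fermenter held at pH 5.0 and sampling in mid exponential phase were common to every array. The study asked how strains adapted to galactose fare on glucose. Each of 62A and 62C rests on 1 array, and nothing in the labels tells if the pairs of 62B and of the reference are separate cultures. The p-values of the strain comparisons therefore measure the spread within these pairs of arrays, which may be technical.

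Each cytosolic ribosome joins a small subunit, which reads the messenger RNA, to a large subunit, which forms peptide bonds. Most of their proteins are encoded in budding yeast by a pair of near-identical genes left from a whole-genome duplication, named A and B. Their transcription is driven by Rap1, Fhl1, Ifh1 and Sfp1 under the control of the TOR complex and of protein kinase A, and growing cells spend much of their transcription on them.

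The ribosomal protein genes sat near the top of the array scale and differed little between strains. Levels are log2 probe set values made by RMA, a method that sets all arrays to a common distribution, so a level is relative to the other RNAs on the array. The mean level of the 127 genes had a lower quartile of 11.14, a median of 11.50 and an upper quartile of 11.93, against a median of 7.31 over all genes tested and a highest mean of 12.86. Of the 200 genes with the highest mean, 105 were ribosomal protein genes, and all 127 lay above the background level of 5.06 on every array.

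The 5 highest means were those of RPS21A (12.61), RPL29 (12.61), RPS18B (12.49), RPS31 (12.48) and RPS21B (12.47). RPS31 encodes its ribosomal protein fused to ubiquitin. The 5 lowest were those of RPL41A (7.53), which encodes one of the shortest known eukaryotic proteins, RPL15B (7.94), RPS9A (8.84), RPS14B (9.78) and RPS7B (10.09). The probe set of RPL41A can hybridise to its paralog too. Probe sets differ in how well they bind, so these levels do not rank the RNA amounts of different genes.

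No ribosomal protein gene changed by more than 0.5 on the log2 scale in any evolved strain. Each strain was set against the reference with limma, a linear model across all 5449 genes with Benjamini-Hochberg adjustment, and a gene passed at an adjusted p under 0.05. In 62A, 1 of 127 rose and 4 fell, or 3.94%, where 24.9% of all genes tested passed (10.0% up and 14.9% down). In 62B, 5 rose and 10 fell, or 11.8%, where 41.4% of all genes passed (20.1% up and 21.3% down). In 62C, 1 rose and 2 fell, or 2.36%, where 38.0% of all genes passed (14.7% up and 23.3% down). The share that passed was thus lower among the ribosomal protein genes than over all genes in each strain.

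The median change of the 127 genes was 0.01 in 62A, 0.02 in 62B and 0.05 in 62C, against -0.04, -0.01 and -0.04 over all genes tested. The 95% confidence interval of the change lay within 0.5 of zero for 127 of the 127 genes in 62A, for 126 in 62B (not for RPS9A) and for 126 in 62C (not for RPS19A). Over all genes that share was 91.2% in 62A, 90.2% in 62B and 84.1% in 62C. There were 72 other genes with a mean level at or above the lower quartile of the ribosomal protein genes. Of these, 22.2% passed in 62A, 43.1% in 62B and 36.1% in 62C, shares close to those over all genes.

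**Figure D1:**
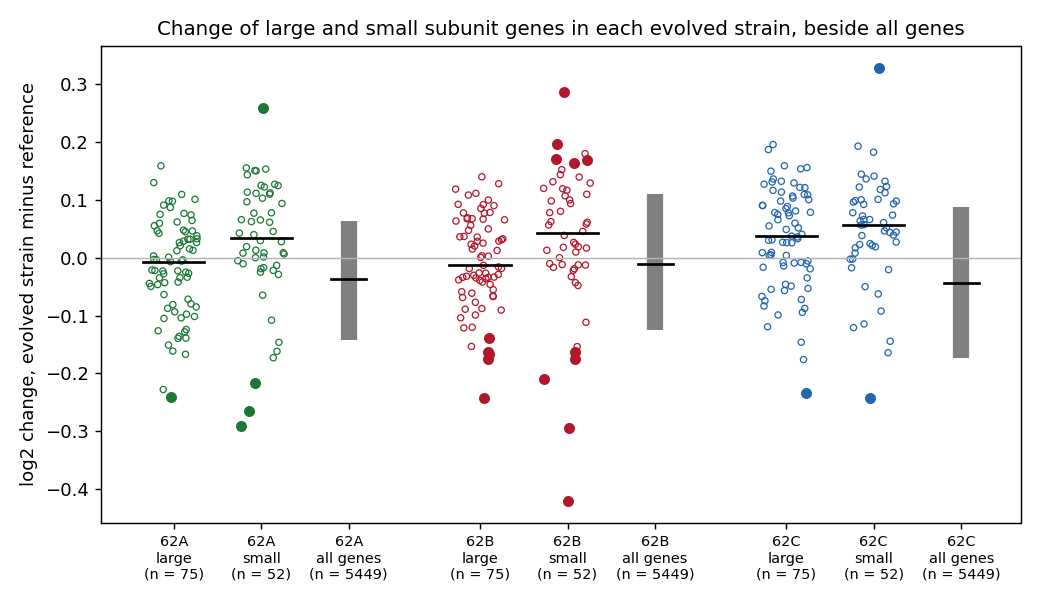
Log2 change of each ribosomal protein gene from the reference mean, by subunit (large and small) and evolved strain, on the vertical axis in log2 units. Each dot is 1 gene, filled dots have a limma adjusted p under 0.05, black bars are medians and grey bars span the middle quartiles of all 5449 genes tested. No dot lies beyond 0.5 in either direction, and the filled dots number 5 in 62A, 15 in 62B and 3 in 62C.

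The counts moved with the arrays and the scaling used. Without reference array 1 they became 16 in 62A, 33 in 62B and 27 in 62C, and without reference array 2 they became 8, 19 and 6. Rises then outnumbered falls without reference array 1, at 11 and 5 in 62A, 22 and 11 in 62B and 22 and 5 in 62C, and falls outnumbered rises without reference array 2, at 6 and 2, 13 and 6, and 4 and 2. Without either 62B array they were 1 in 62A and 2 in 62C, and in 62B 5 without array 1 and 3 without array 2. The split into rises and falls moved with the scaling as well. Quantile normalization gave 3 rises and 3 falls in 62A and 13 rises and 15 falls in 62B, and centring each array on its median gave 2 and 4 in 62A, 7 and 12 in 62B and 5 and 2 in 62C.

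Over the 3 comparisons, which share the reference arrays, 17 genes passed in at least 1 strain. RPS0B passed in all 3, RPS0A, RPS9A, RPL13A and RPS22B passed in 62A and 62B, and 12 passed in 1 strain. None of the 17 is measured by a probe set marked as shared with related genes. The other 110 genes passed in no strain. Their changes ran from -0.23 (RPL19A) to 0.16 (RPL11A) in 62A, from -0.15 (RPS8B) to 0.18 (RPS10A) in 62B, and from -0.15 (RPP0) to 0.20 (RPL39) in 62C.

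The genes that rose were all of the small subunit. Its 52 genes gave 1 rise in 62A, 5 in 62B and 1 in 62C, beside 3, 5 and 1 falls. The medians were 0.03, 0.04 and 0.06. Of the 75 large subunit genes, 0 rose in any strain by limma, and 1 fell in 62A, 5 in 62B and 1 in 62C, with medians of -0.01, -0.01 and 0.04. At an unadjusted p under 0.05 and in either direction, 9 small and 6 large subunit genes were counted in 62A, 20 and 11 in 62B, and 5 and 7 in 62C. Over all 5449 genes these counts were 2089, 2728 and 2585. The difference between the subunits was not tested.

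RPS0B (YLR048W) was lower in every evolved strain. With its paralog RPS0A it encodes a small subunit protein needed to finish the 3' end of 18S ribosomal RNA. Its level was 10.91 in 62A, 10.97 and 10.85 in 62B and 10.96 in 62C, against 11.24 and 11.17 on the reference arrays. All 4 evolved arrays thus lay below both reference arrays. The change was -0.29 ± 0.07 in 62A (standard error, limma adjusted p = 0.0139), -0.29 ± 0.06 in 62B (adjusted p = 0.00261) and -0.24 ± 0.07 in 62C (adjusted p = 0.0200). In each strain it stayed past the threshold under every alternative run.

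RPS0A (YGR214W) read 10.71 in 62A, 10.76 and 10.67 in 62B and 10.78 in 62C, against 10.93 and 10.91 on the reference arrays. The groups again did not overlap. It fell by 0.22 in 62A (limma adjusted p = 0.0313) and by 0.21 in 62B (adjusted p = 0.00905). In 62C the change of -0.14 had an adjusted p of 0.0942. The call in 62A was lost without either 62B array (adjusted p = 0.0740), and that in 62B without 62B array 2 (adjusted p = 0.129).

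RPS9A (YPL081W) had the largest change of the 127 genes, in 62B. Its protein binds 18S ribosomal RNA in the body of the small subunit and bears on the accuracy of decoding. The level was 8.79 in 62A, 8.69 and 8.57 in 62B and 8.89 in 62C, against 9.13 and 8.98 in the reference. It fell by 0.42 ± 0.06 in 62B, a fold of 0.747 (limma adjusted p = 0.000849), and by 0.26 ± 0.08 in 62A (adjusted p = 0.0373). The 62C array also lay below both reference arrays, with a change of -0.16 and an adjusted p of 0.131. In 62A the call was lost without either 62B array (adjusted p = 0.0661) and without reference array 1 (-0.19, adjusted p = 0.0526).

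RPS22B (YLR367W) moved the other way. It encodes a protein of the small subunit body that contacts 18S ribosomal RNA. Its level was 11.14 in 62A, 11.16 and 11.17 in 62B and 11.06 in 62C, against 10.94 and 10.83 in the reference, with all evolved arrays higher. It rose by 0.29 ± 0.05 in 62B, a fold of 1.22 (limma adjusted p = 0.00242), and by 0.26 ± 0.06 in 62A (adjusted p = 0.0185). The change in 62C was 0.18 (adjusted p = 0.0512). Without either 62B array the call in 62A was lost (adjusted p = 0.0569).

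RPS19A (YOL121C) passed in 62C with a rise of 0.33 ± 0.11 (limma adjusted p = 0.0454). The human counterpart of RPS19 is mutated in Diamond-Blackfan anemia. The level was 10.32 in 62A, 10.33 and 10.31 in 62B and 10.50 in 62C, against 10.34 and 9.997 in the reference. The reference arrays differed from each other by about as much as the rise itself. Against reference array 1 alone the change was 0.16 (adjusted p = 0.0505), and against reference array 2 alone it was 0.50. It was also lost without either 62B array (adjusted p = 0.0795).

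Further small subunit genes passed in 62B by small changes. RPS23B, whose protein lies at the decoding centre, rose by 0.20, RPS18B of the subunit head by 0.17 and RPS10B by 0.16. RPS7B fell by 0.17 and RPS11A by 0.16. Their limma adjusted p ran between 0.0146 (RPS23B) and 0.0252 (RPS11A), and each of these calls was lost without either 62B array, with adjusted p between 0.0595 (RPS23B without array 1) and 0.246 (RPS11A without array 2). The call of RPS7B was also lost without reference array 2 (-0.13, adjusted p = 0.0656). That of RPS10B was lost when probe sets were averaged (0.12, adjusted p = 0.0671).

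**Figure D2:**
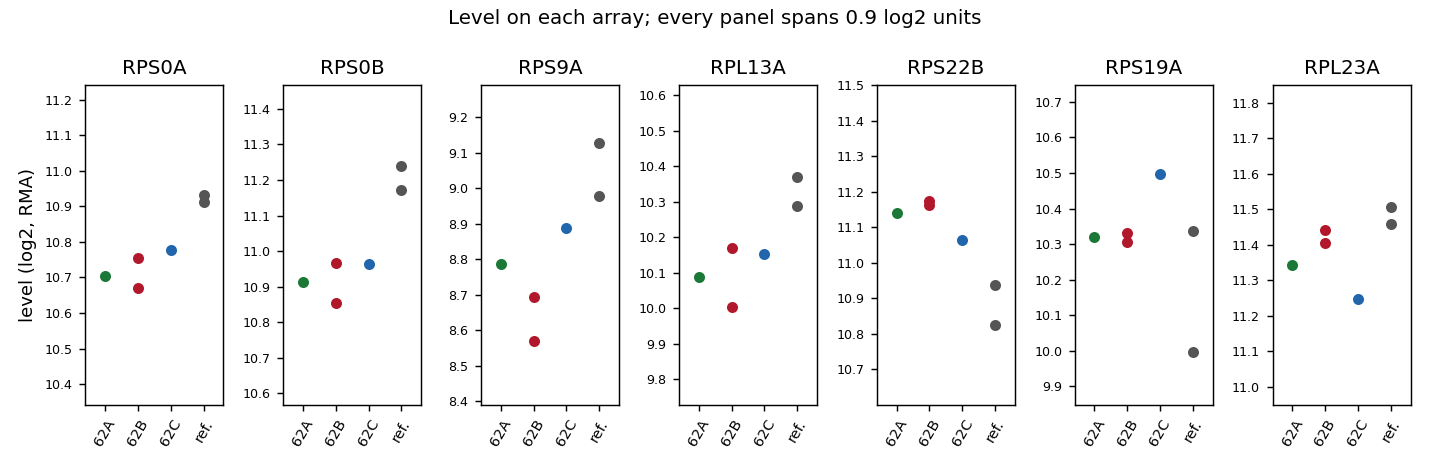
Log2 level on each array (62A, 62B, 62C, reference from left to right) for RPS0A, RPS0B, RPS9A, RPL13A, RPS22B, RPS19A and RPL23A, 1 point per array and each panel spanning 0.9 log2 units. The 4 evolved points of RPS0A, RPS0B, RPS9A, RPL13A and RPL23A lie below both reference points, those of RPS22B lie above them, and those of RPS19A overlap them because the reference points are 10.34 and 9.997.

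In the large subunit the genes that passed all fell. RPL13A (YDL082W), a structural protein of the subunit, passed in 62A and 62B. It read 10.09 in 62A, 10.17 and 10.004 in 62B and 10.15 in 62C, against 10.29 and 10.37 in the reference. The evolved arrays were lower throughout. RPL13A fell by 0.24 ± 0.08 in 62A (limma adjusted p = 0.0489) and by 0.24 ± 0.06 in 62B (adjusted p = 0.0132), and its change in 62C was -0.18 (adjusted p = 0.103). The 62A call was lost without either 62B array (adjusted p = 0.0627) without reference array 2 (adjusted p = 0.0822) and after quantile normalization (adjusted p = 0.0657), and the 62B call without 62B array 2 (-0.16, adjusted p = 0.164).

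RPL23A (YBL087C) passed in 62C. Its protein lies on the face of the large subunit that meets the small one. The level was 11.34 in 62A, 11.44 and 11.40 in 62B and 11.25 in 62C, against 11.46 and 11.51 in the reference. The 62C array was the lowest and the 62B arrays lay just under the reference. The change was -0.23 ± 0.06 in 62C (limma adjusted p = 0.0124), -0.14 in 62A (adjusted p = 0.116) and -0.06 in 62B (adjusted p = 0.363). The 62C call held without each 62B and each reference array in turn.

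Another 4 large subunit genes, RPL6B, RPL8A, RPL17B and RPL5, passed in 62B. RPL17 lines the tunnel through which the new peptide leaves, and RPL5 binds 5S ribosomal RNA. They fell by 0.17, 0.17, 0.16 and 0.14 with limma adjusted p between 0.0172 (RPL6B) and 0.0391 (RPL5). All 4 calls were lost without either 62B array, with adjusted p between 0.0623 (RPL17B without array 1) and 0.296 (RPL17B without array 2), and that of RPL5 also without reference array 2 (adjusted p = 0.0717). The call of RPL8A was lost as well when its probe sets were averaged (-0.10, adjusted p = 0.118).

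The stalk proteins form the arm of the large subunit that recruits the elongation factors. RPP0, its base, read 11.75 in 62A, 11.74 and 11.72 in 62B and 11.74 in 62C, against 11.82 and 11.95 in the reference. All evolved arrays lay below both reference arrays, which themselves differed more than the evolved arrays did. The changes of -0.14, -0.15 and -0.15 in 62A, 62B and 62C had limma adjusted p of 0.174, 0.0516 and 0.121. RPP1A, RPP1B, RPP2A and RPP2B, which attach to RPP0 as acidic dimers, had changes between -0.07 and 0.11, and none passed.

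With each evolved strain counted as 1 sample, RPS0B was the 1 ribosomal protein gene that passed against the reference arrays, with a change of -0.28 ± 0.05 (limma adjusted p = 0.0484). Both reference arrays counted as separate samples here, though they are of 1 strain. The spread behind this p-value thus mixes that between evolved strains with that of the reference pair. In that comparison 4.75% of all genes passed (2.79% down). An unadjusted p under 0.05 was reached by 13 of the 127, against 1555 of all 5449 genes. The call of RPS0B was lost in 8 alternatives, among them each reference array left out (adjusted p = 0.233 without array 1 and 0.345 without array 2), 62A left out (0.178), 62C left out (0.0723) and 62B array 2 left out (0.0584). The median change of the 127 genes was 0.03, against -0.03 over all genes.

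For 35 of the 127 genes (27.6%) each of the 4 evolved arrays read higher than either reference array, and for 21 (16.5%) each read lower. Over all genes tested, 18.2% lay above and 27.4% below. Without regard to direction, 44.1% of the ribosomal protein genes and 45.6% of all genes did not overlap, a similar share, and 62.5% of the other genes at like level did not. The genes above comprised 20 small and 15 large subunit genes, and those below 7 small and 14 large. The sign of the change was the same in 62A, 62B and 62C for 84 of 127 genes, in comparisons that share the reference arrays. Shared reference arrays favour the same sign for any gene. The share over all genes was not counted, so this is not read as a trait of the ribosomal protein genes.

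The evolved strains differed little from one another. The limma moderated F test among 62A, 62B and 62C called 0 of the 127 genes, where 28.8% of all genes and 18.1% of the other genes at like level passed. At an unadjusted p under 0.05 the count was 4, against 2218 of all 5449 genes. Among the 4 were RPS9A (F test adjusted p = 0.0734), RPL15B (0.107) and RPL23A (0.111). The next by p were RPP1B, RPS14B, RPL43B and RPL17A, with adjusted p between 0.211 and 0.245. Without reference array 1, and likewise without reference array 2, the count was 5.

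Pairwise contrasts of the same model called 0 ribosomal protein genes for 62B minus 62A, where 16.1% of all genes passed. They also called 0 for 62C minus 62A, where 2.42% of all genes passed. At an unadjusted p under 0.05 these contrasts counted 1 and 0, against 1608 and 784 of all 5449 genes. The contrast of 62B minus 62C called 3, or 2.36%, where 33.6% of all genes passed. Among them, RPL23A was higher in 62B than in 62C by 0.18 (limma adjusted p = 0.0469). RPS9A was lower in 62B than in 62C by 0.26, with an adjusted p of 0.0333.

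The spread of the genes between arrays shows the same pattern. The SD, over the 127 genes, of the log2 difference between arrays of 2 evolved strains was between 0.0480 and 0.0790. Between the 2 arrays of 62B it was 0.0502, and between the 2 reference arrays 0.0871. Evolved and reference arrays differed with an SD between 0.0836 and 0.131, so the lowest of these lay under the gap within the reference. Over all genes the SD was 0.137 to 0.303 between evolved strains and 0.249 to 0.366 between evolved and reference arrays, against 0.0695 and 0.0956 within 62B and within the reference.

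**Figure D3:**
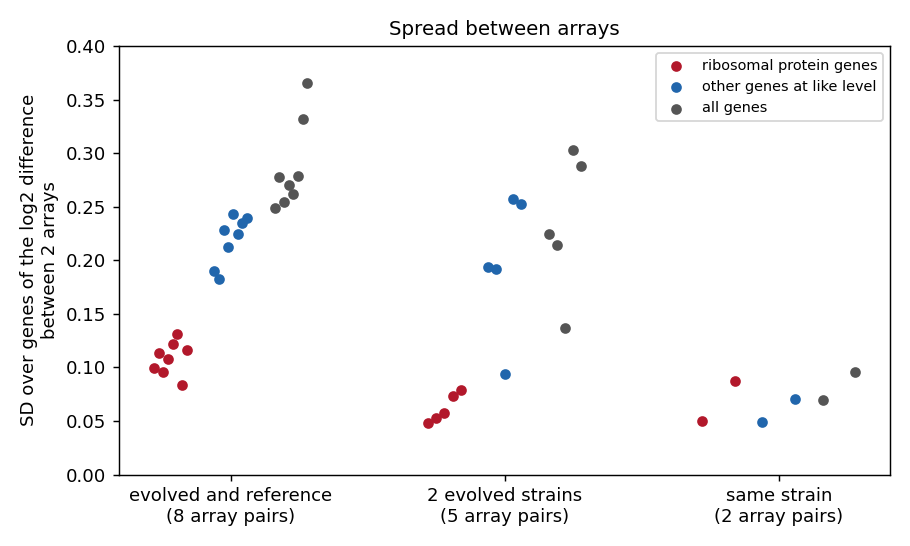
SD of the log2 difference between each pair of arrays (vertical axis, log2 units), over the ribosomal protein genes, the 72 other genes at like level and all 5449 genes tested. Points are 8 pairs of an evolved and a reference array, 5 pairs of 2 evolved strains and 2 pairs within 1 strain. For the ribosomal protein genes the pairs of evolved strains (0.0480 to 0.0790) lie at the level of the pairs within a strain (0.0502 and 0.0871), while over all genes they lie above it.

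The A and B copies were then set against each other. Among the 127 genes 59 paralog stems were represented, 50 with both genes measured, and 18 genes had no paralog. On each array the level of the B gene was subtracted from that of the A gene, and since the probe sets differ, a shift of this difference between strains is read and not its sign. The range of the strain means had a median of 0.12 over the 50 pairs and a highest value of 0.42, against a median gap of 0.0337 between the 62B arrays and of 0.0545 between the reference arrays. In 38 pairs neither probe set was marked as able to hybridise to both copies, and in 27 of these the range exceeded both gaps. A range over all strain means tends to be wider than the gap of a single array pair even without a strain difference. Ranges and gaps are therefore not like measures, and the count of 27 does not show that strains differ. The evolved arrays did not overlap the reference arrays in 18 of all 50 pairs (36.0%), 8 shifted towards A and 10 towards B. Among the 38 pairs without a marked probe set, 5 shifted towards A and 8 towards B. For single genes the share without overlap was 45.6% over all genes tested, so the share of the pairs was not higher. Pairs of other genes were not counted. The A minus B differences were described and not tested.

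RPS9 had the widest range. Its A minus B difference was -2.55 in 62A, -2.68 and -2.77 in 62B and -2.47 in 62C, against -2.26 and -2.36 in the reference. The shift lay with RPS9A. Its own changes in 62A, 62B and 62C were -0.26, -0.42 and -0.16, against shifts of -0.24, -0.42 and -0.16. In RPL23 the difference was -0.17 in 62A, -0.05 and -0.17 in 62B and -0.26 in 62C, against 0.06 and 0.07 in the reference, a shift towards RPL23B on all 4 evolved arrays. RPS22 shifted towards B as well, at 0.02 in 62A, -0.04 and -0.02 in 62B and 0.09 in 62C, against 0.21 and 0.23 in the reference.

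RPS7 shifted towards its A gene. The difference was 1.71 in 62A, 1.69 and 1.77 in 62B and 1.57 in 62C, against 1.40 and 1.42 in the reference. Both copies contributed, with changes of RPS7A of 0.12, 0.14 and 0.05, none of which passed, and the fall of RPS7B in 62B. RPL26, which lies near the exit of the peptide tunnel, shifted towards B. Its difference was -0.38 in 62A, -0.34 and -0.40 in 62B and -0.29 in 62C, against -0.17 and -0.15 in the reference, although neither copy passed alone.

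The pairs RPS0 and RPL13 differed from these. The shift of RPS0A minus RPS0B was 0.07 for 62A, 0.09 for 62B and 0.10 for 62C, smaller than the change of either copy in each strain. RPL13B read 10.97 in 62A, 11.07 and 10.99 in 62B and 11.11 in 62C, against 11.22 and 11.04 in the reference. It passed in no strain, and its arrays overlapped.

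**Figure D4:**
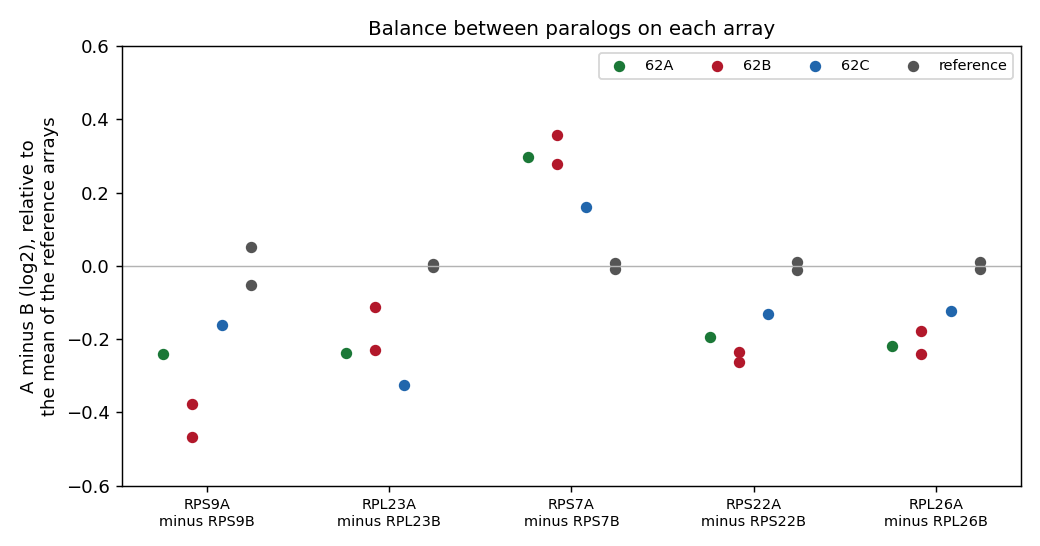
A minus B log2 difference relative to the mean of the reference arrays (vertical axis, log2 units) for the pairs RPS9, RPL23, RPS7, RPS22 and RPL26, 1 point per array, with 62A, 62B and 62C left of the reference. RPS9 in 62B reaches -0.42 as the mean of its arrays, and RPS7 lies above zero on all 4 evolved arrays.

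Near-identical copies limit what a probe set can resolve. The 127 genes were measured by 147 probe sets, and for 21 genes the probe set kept was marked as able to bind related genes too. In 9 stems a probe set was named for 1 copy alone (RPL18B, RPL1B, RPL35A, RPL41A, RPL42B, RPL7A, RPS30A, RPS4B and RPS6B). Of the 20 genes with several probe sets, 9 gave changes of opposite sign in at least 1 strain (among them RPL11B, RPL14B, RPL20B, RPL2A, RPL8A, RPS24A, RPS26A and RPS8A), and RPL14B did so in all 3. RPS8A is an example of how far probe sets of a gene can differ. Its brighter probe set, which can hybridise to RPS8B, changed by -0.01, -0.03 and 0.01 in 62A, 62B and 62C, while the probe set specific to it changed by -0.16, -0.17 and -0.03. The kept probe set of RPS8B changed by -0.15 in 62B. The cause of the gap between the RPS8A probe sets was not tested.

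Genes that act on ribosomal protein genes or their products were counted from 4 further lists. Among 15 regulators of ribosomal protein genes the falls numbered 2 in 62A, 2 in 62B and 4 in 62C, with 1 rise in 62C and medians of -0.10, -0.02 and -0.05. Over all genes tested 14.9%, 21.3% and 23.3% fell, so these falls are near or below the general share. KOG1, a subunit of TOR complex 1, fell by 0.33 in 62A (limma adjusted p = 0.0039), 0.25 in 62B (0.00301) and 0.37 in 62C (0.0011). SCH9, the kinase downstream of that complex, changed by -0.30 in 62A (adjusted p = 0.0153), 0.13 in 62B (0.118) and -0.30 in 62C (0.0103), and differed among the evolved strains (F test adjusted p = 0.002).

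Chaperones bind new ribosomal proteins until they join the ribosome, and importers carry them into the nucleus. Of 10 genes listed for them, 9 fell in 62C, where 23.3% of all genes fell. There were 4 falls in 62A, where 14.9% of all genes fell, and 2 falls and 1 rise in 62B, where the 21.3% of all genes that fell is a like share. The medians were -0.18 in 62A, -0.07 in 62B and -0.35 in 62C, and 8 of the 10 differed among the evolved strains by the F test, against 28.8% of all genes. YAR1, the chaperone of Rps3, fell by 0.43 in 62A (limma adjusted p = 0.00289), 0.19 in 62B (0.0259) and 0.54 in 62C (0.000389). The importin KAP123 fell by 0.30, 0.21 and 0.47. RRB1 and ACL4, the chaperones of Rpl3 and Rpl4, fell in 62A by 0.27 and 0.26 and in 62C by 0.47 and 0.43, and had changes of -0.04 and -0.10 in 62B that did not pass.

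Ribosome-associated proteins, 15 in all, gave 4 falls in 62A, 6 in 62B and 6 in 62C, beside 1, 1 and 2 rises. Over all genes 14.9%, 21.3% and 23.3% fell and 10.0%, 20.1% and 14.7% rose. Medians of the list were -0.13, -0.12 and -0.15. TMA10, a small protein found with ribosomes, was the 1 gene of the list that rose in all 3 strains, with a change of 1.71 for 62A, 1.56 for 62B and 2.47 for 62C (limma adjusted p = 0.000118, 2.95e-05 and 4.92e-06). Levels of TMA10 were 8.73 in 62A, 8.55 and 8.61 in 62B and 9.49 in 62C. The reference arrays read 7.28 and 6.75 and so differed from each other, and the standard errors were 0.16, 0.13 and 0.16. ZUO1, the Hsp40 partner at the tunnel exit, fell by 0.29, 0.26 and 0.29, and TMA46 by 0.26, 0.20 and 0.35. RBG1, a GTPase that works with TMA46, fell by 0.34 in 62A and 0.53 in 62C and changed by -0.15 in 62B (adjusted p = 0.0514).

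Of 9 elongation factor genes measured of 11 listed, 1 fell in 62A, 3 in 62B and 2 in 62C, and the median was -0.08 in each. Of all genes 14.9%, 21.3% and 23.3% fell, so the shares in 62A and 62C lie at or under the general one. TEF4, a subunit of the exchange factor of eEF1A, fell by 0.18 in 62A (adjusted p = 0.0495), 0.19 in 62B (0.0124) and 0.20 in 62C (0.0267).

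**Figure D5:**
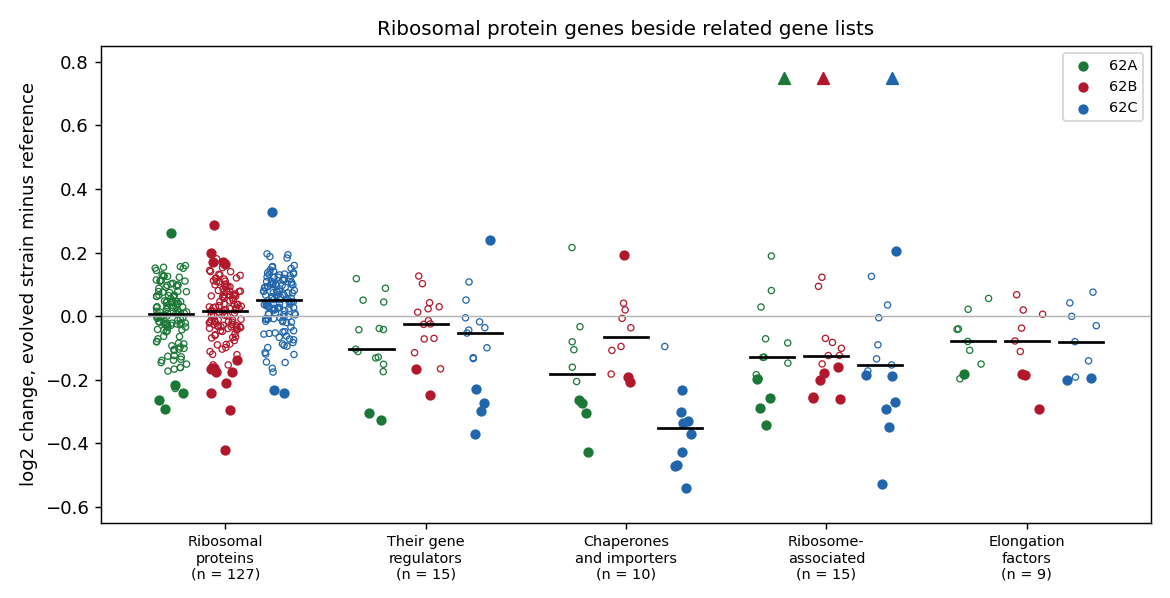
Log2 change from the reference mean (vertical axis, log2 units) in 62A, 62B and 62C for the 127 ribosomal protein genes and for the lists of regulators (15 genes), chaperones and importers (10), ribosome-associated proteins (15) and elongation factors (9). Dots are genes and bars medians, and triangles at the top edge stand for TMA10, at 1.71, 1.56 and 2.47, beyond the axis. The chaperones and importers have their median at -0.35 in 62C.

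Several technical and cell identity values were set beside these results. Over 8 control genes the 3' minus 5' probe set difference, a sign of RNA and labelling quality, was 1.89 in 62A, 2.01 and 2.05 in 62B and 1.73 in 62C, against 1.90 and 1.84 in the reference. By this value the 62B arrays were highest and 62C lowest. For the actin gene ACT1 alone it was 1.49 in 62A, 1.58 and 1.73 in 62B and 1.41 in 62C, against 1.40 and 1.27 in the reference, so that all evolved arrays were higher. Longer ribosomal protein genes tended to have the lower changes. Over the 127 genes Spearman's correlation of the change with the gene's span (RefSeq R64, introns included) was -0.28 in 62A, -0.29 in 62B and -0.25 in 62C, against -0.29, -0.15 and -0.33 over all 5449 genes and -0.58, -0.44 and -0.54 over the 72 other genes at like level. These are correlations across genes that share the arrays. The 32 genes of longest span (912 to 1662 bases) held 6 of the 10 falls and none of the rises in 62B, and their medians were -0.06, -0.04 and -0.01. The 32 of shortest span (78 to 576 bases) had medians of 0.02, 0.03 and 0.06 and held none of the 62B calls. The part of span and of RNA quality in the calls was not tested.

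As markers of cell identity, the 6 genes of a mating type cells were above background, with levels up to 11.28, and the 4 genes of alpha cells read 5.04 to 6.67. In 62B 6 of 6 a-cell genes fell (limma), with a median of -0.69, where 21.3% of all genes fell. Of the alpha-cell genes 2 of 4 fell there too, among them STE3 by 0.84 (limma adjusted p = 2.97e-06), to 5.08 and 5.14 in 62B, against 5.94 and 5.96 in the reference. The other was MF(ALPHA)1, at 5.11 and 5.09 in 62B. Both falls thus ended close to the background level of 5.06, which limits what their size can tell. Among the a-cell genes, 2 rose in 62A, where 10.0% of all genes rose. In 62C 3 a-cell genes rose and 1 fell, where 14.7% of all genes rose and 23.3% fell. Of the alpha-cell genes, 1 fell in 62A, where 14.9% of all genes fell, and 1 rose in 62C. In bulk RNA fewer cells of a type and less RNA per cell cannot be told apart, and the part of this difference in the ribosomal protein values of 62B was not tested.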

How the data were processed

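RNA of 4 strains was measured on 6 Affymetrix Yeast Genome 2.0 arrays. The deposited values are log2 expression values per probe set. The submitters' processing notes name RMA and the affy package as the tools of the authors. Not given in the sources used here are the tool versions, the genome build and the arrays normalized together. The table held 10928 probe sets, of which 7245 named a gene. Of several probe sets of a gene the one with the highest mean was kept, which gave 5449 genes. Probe sets whose identifiers mark them as shared between related genes were recorded. Background is the 95th percentile of probe sets of another yeast species.

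Models were fitted with limma 3.58.1 (R 4.3.3, lmFit and eBayes, Benjamini-Hochberg over 5449 genes, threshold 0.05), tested on simulated data first. The strain model had 1 term per strain and 2 residual degrees of freedom, so that the spread comes from the 62B and the reference pairs and the lone arrays of 62A and 62C are assumed to vary alike. The class comparison set 3 samples, namely 62A, 62C and the averaged pair of 62B, against the reference arrays, with 3 residual degrees of freedom. The number of arrays limits the precision.

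Genes named are those past the threshold (up to 6 rises and 6 falls per strain), the 8 smallest F test p-values, the 6 paralog pairs of widest range with specific probe sets first, the stalk genes, the 5 highest and 5 lowest means, probe sets that disagree in sign and, per list, up to 4 genes past the threshold in 2 or more strains. RPS0 and RPL13 as pairs, the genes at the ends of the ranges, and RPS11A, RPL17B and RPL5 among the falls of 62B, were chosen after their values were seen. The ribosomal protein genes and the lists were chosen with earlier results of these data known. Alternatives covered scaling, probe set choice, filters, variance trend, replicate block and each array left out. Promoter motifs and protein sequences were not analysed here. A gene pair that the rule selects is counted but not reported here by name.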

Additional observations from a re-analysis of the deposited data

Results flagged for a closer look

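Both results come from probe sets that the comparisons above did not use, apart from the example of RPS8A. A brighter probe set of the same gene was kept, and for both genes that brighter one can hybridise to relatives. The model was refitted without such probe sets, which replaced the kept one in 12 of the ribosomal protein genes. These were the only calls among the 12 in any strain, and they were not rerun with arrays left out. The specific probe set of RPS8A, a small subunit protein, read 10.67 in 62A, 10.67 and 10.66 in 62B and 10.80 in 62C, against 10.85 and 10.83 in the reference. It fell by 0.17 in 62B (limma adjusted p = 0.0159, standard error 0.0466). The specific probe set of RPS29A, another small subunit protein, read 11.81 in 62A, 11.88 and 11.92 in 62B and 11.79 in 62C, against 11.75 and 11.77 in the reference. It rose by 0.14 in 62B (limma adjusted p = 0.0361, standard error 0.0473). All evolved arrays lay below both reference arrays for RPS8A and above both for RPS29A.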

How the results depend on the processing

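The count of ribosomal protein genes past the threshold depended on the setting. In 62A (5 as reported) it was 9 with the replicate block and 1 to 16 when arrays were left out in turn. In 62B (15) it was 28 after quantile normalization, 30 with a variance trend and 3 to 33 with an array left out. In 62C (3) it was 7 after median centring, 5 without probe sets that can hybridise to relatives, 5 without dim genes, 8 with a variance trend, 6 with the replicate block and 2 to 27 with an array left out. Among the evolved strains (0) the F test gave 2 after quantile normalization, 1 after median centring, 1 with a variance trend and 0 to 5 with an array left out. The class comparison (1) gave 0 after median centring, 0 with the replicate block, 3 with each evolved array as a sample, 0 with strain as a random block and 0 to 1 with an array left out. The causes were not tested. Between 62B and the reference, the array 1 minus array 2 differences had r = -0.06 over 5449 genes. With 1 such difference per strain, this cannot tell whether the shared replicate numbers pair the arrays. Of 268 values for 24 calls of single genes, 219 stayed past the threshold in the same direction, 49 lost the call and 0 reversed. RPS0B in the class comparison had adjusted p of 0.0247 to 0.345 over its alternatives. The paralog count of 18 was again 18 with probe sets averaged. Scaling moved the median of all genes by less than 0.1.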
